A study of Mus musculus with 6 samples.

Results

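Oxidative phosphorylation makes most of the ATP that a neuron uses. Complexes I and II pass electrons from NADH and succinate to ubiquinone, complex III passes them to cytochrome c and complex IV to oxygen, and complex V, the ATP synthase, uses the proton gradient built by complexes I, III and IV. Apart from a small set of proteins encoded by mitochondrial DNA, the subunits come from nuclear genes, and in the brain their transcripts are abundant in neurons and glia alike.

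The genes described here were those whose symbol marks a nuclear-encoded subunit of complexes I to V (the Nduf a, b, c, s and v series with a number, Sdha to Sdhd, the Uqcr genes, Cox4 to Cox8 and the Atp5 genes), each represented by its brightest probe set with a single gene symbol. This gave 81 of the 18193 genes measured, with 35 in complex I, 4 in complex II, 8 in complex III, 17 in complex IV and 17 in complex V. All 81 entered the test, with no filter on low values. Together they were read by 164 probe sets, and 48 of the 81 genes had more than 1. A further 7 matching symbols, among them Ndufa11 and Ndufs6, stood only on probe sets that carry several symbols and are not used here. Symbols are those of the platform annotation, so Atp5a1 is the gene now called Atp5f1a. A few members are not subunits in the strict sense. Ndufa4 is named for complex I but is now counted with complex IV, Cox7a2l is an assembly factor of respiratory supercomplexes, and Ndufa4l2 is a paralogue of Ndufa4 that is induced in hypoxia.

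Hippocampal RNA came from 3 animals of the genotype IκBαfl/-;Nestin-Cre and from 3 littermates of the genotype IκBαfl/-, all aged 2-3 months. Every animal thus had 1 floxed and 1 null copy of Nfkbia, the IκBα gene, and the recombinase was present in the first group alone, so the littermates are heterozygous for the loss and not wild type. Nestin-Cre acts in the neural lineage, which leaves microglia and blood vessels with the floxed allele. The labels call the samples biological repeats, and each was read on 1 array. Values are RMA values on the log2 scale, and a difference is the IκBα-deficient mean less the control mean on that scale.

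Array medians lay between 6.08 and 6.12. Nfkbia was at 9.06, 9.13 and 8.66 on IκBα-deficient arrays 1 to 3, against 10.39, 10.35 and 10.31 on control arrays 1 to 3, lower on every IκBα-deficient array by -1.40 ± 0.12 (SE). Adjusted by Benjamini-Hochberg, its limma p was 0.057, and the threshold was 0.05. Whether its probes lie in the deleted part is not known here. Markers of hippocampal neurons were measured in both groups, at list means of 10.05 to 10.10 on IκBα-deficient arrays and 10.08 to 10.21 on control arrays. Of these 13 genes, 3 were higher and 10 lower in IκBα-deficient animals, with a median of -0.06. Without IκBα-deficient array 2, 1 was higher and 12 lower, with a median of -0.08. IκBα-deficient array 2 stood apart in its control probe sets. The gap between the 3′ and 5′ control probe sets of Actb, which widens when RNA is degraded or copied incompletely, was 1.19, 2.64 and 1.13 on IκBα-deficient arrays 1 to 3, against 1.15, 1.26 and 1.04 on control arrays 1 to 3. For Gapdh the gap was 0.114, 1.40 and 0.094 on the IκBα-deficient arrays, against 0.142, 0.191 and 0.077 on the control arrays. The same array stood apart in its markers of other cells. The list mean of 12 genes of meninges and fibroblasts was 7.72, 8.77 and 7.67 on the IκBα-deficient arrays, against 7.59, 7.74 and 7.07 on the control arrays. All 12 were higher in IκBα-deficient animals, by a median of 0.54, and of 0.17 without array 2. The list mean of 8 microglial genes was 9.50, 9.14 and 9.58, against 9.40, 9.40 and 9.49, and 6 of the 8 were lowest on IκBα-deficient array 2. The part of these markers and of the gap in the members' values on that array was not tested, and many results below are also given without it. Control arrays 2 and 3 had far lower values of choroid plexus markers than the other 4 arrays. The list mean of 11 such genes was 8.95, 8.32 and 8.01 on the IκBα-deficient arrays, against 8.11, 5.91 and 5.89 on the control arrays.

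Nuclear genes for the respiratory chain are known to be bound by the nuclear respiratory factor NRF1, by ETS factors such as GABP, and by YY1. IκBα restrains NF-κB factors, which bind κB sites. Promoters from RefSeq (GRCm38.p6, 250 bases before to 50 bases after the annotated start) were found for 66 of the 81 genes, in 71 windows. An NRF1 motif (GCATGCGC, either strand) stood in 12.7% of these windows and in 2.71% of all 32851 windows in the table. An ETS motif (CCGGAAG, either strand) stood in 23.9% and in 8.86% of all windows, and a YY1 motif (AAGATGGC, either strand) in 12.7% and in 2.75%. The κB motif, searched on both strands as its usual consensus, stood in 1 of the 71 windows, that of Sdhb, or 1.41%, and in 4.51% of all windows. These shares describe letters and not binding. The motifs do not share letters with each other in the sequences shown, apart from the NRF1 motif, which overlaps itself on the opposite strand where it forms a palindrome.

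The 250 bases before the start are printed 5′ to 3′ for 5 genes, with motif matches in capitals. Cox6b2 (chr7:4753095-4753344, minus strand) and Cox8b (chr7:140900447-140900696, minus strand) are the members with the largest positive differences, and Cox6b1 (chr7:30626115-30626364, minus strand) is the widely expressed counterpart of Cox6b2. Cox6a1 (chr5:115348959-115349208, minus strand) shows the NRF1 palindrome and an ETS motif together, and Sdhb (chr4:140961021-140961270, plus strand) holds the κB match, which comes first in the line, and an NRF1 motif. The motif in Cox6b1 is that of ETS factors. None of the 4 motifs was found in the printed bases of Cox6b2 and Cox8b.
Cox6b2: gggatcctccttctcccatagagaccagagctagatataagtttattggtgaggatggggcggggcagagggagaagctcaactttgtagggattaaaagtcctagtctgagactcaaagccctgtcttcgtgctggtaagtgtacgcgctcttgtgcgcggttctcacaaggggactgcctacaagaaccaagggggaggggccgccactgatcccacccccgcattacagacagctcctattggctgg
Cox6b1: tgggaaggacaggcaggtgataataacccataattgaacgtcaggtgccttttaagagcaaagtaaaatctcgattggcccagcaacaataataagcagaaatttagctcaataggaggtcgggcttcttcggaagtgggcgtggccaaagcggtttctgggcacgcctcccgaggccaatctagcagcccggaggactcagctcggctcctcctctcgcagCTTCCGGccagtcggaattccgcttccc
Cox8b: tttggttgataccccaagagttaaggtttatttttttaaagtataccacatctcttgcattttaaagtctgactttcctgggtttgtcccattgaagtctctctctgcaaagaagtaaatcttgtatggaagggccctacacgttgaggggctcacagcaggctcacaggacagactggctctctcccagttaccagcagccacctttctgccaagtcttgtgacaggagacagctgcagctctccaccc
Cox6a1: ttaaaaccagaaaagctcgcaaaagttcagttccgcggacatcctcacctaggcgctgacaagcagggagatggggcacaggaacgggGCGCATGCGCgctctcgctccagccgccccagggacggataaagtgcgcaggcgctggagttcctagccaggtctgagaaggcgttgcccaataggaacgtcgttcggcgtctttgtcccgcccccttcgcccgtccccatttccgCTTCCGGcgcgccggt
Sdhb: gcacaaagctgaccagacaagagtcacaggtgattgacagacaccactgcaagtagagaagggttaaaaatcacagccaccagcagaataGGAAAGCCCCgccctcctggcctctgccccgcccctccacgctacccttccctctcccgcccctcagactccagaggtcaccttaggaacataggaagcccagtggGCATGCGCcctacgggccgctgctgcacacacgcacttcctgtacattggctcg

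As a group, the subunit genes differed little between IκBα-deficient and control hippocampi. Of the 81 genes, 29 had a positive and 52 a negative difference, with a median of -0.03, a middle range of -0.07 to 0.02 and extremes of -0.18 and 0.47. Over all 18193 genes the median was 0.01 and 47.4% were negative, against 64.2% of the members. The size of the difference was under 0.10 for 72 members, or 88.9%, against 70.8% of all genes. Among genes with a mean of 10 or more these shares were 94.3% of 70 members and 82.0% of 3572 genes. None of the 81 passed an adjusted p of 0.05 in either direction (limma, Benjamini-Hochberg over all genes), where 0.0% of all genes passed as higher and 0.0% as lower, and a test without moderation also called 0. The lowest adjusted p among the members was 0.963. At an unadjusted p under 0.05, 2 members were higher and 1 lower, with 3.33% of all genes higher and 1.39% lower, or 4.71% in either direction. Without IκBα-deficient array 2 these members numbered 1 and 0, with no share of all genes given for that setting. With 3 arrays in each group an exact permutation test of a single gene cannot give a p below 0.1. In whole tissue, fewer cells of a type and less RNA per cell cannot be told apart.

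**Figure D1:**
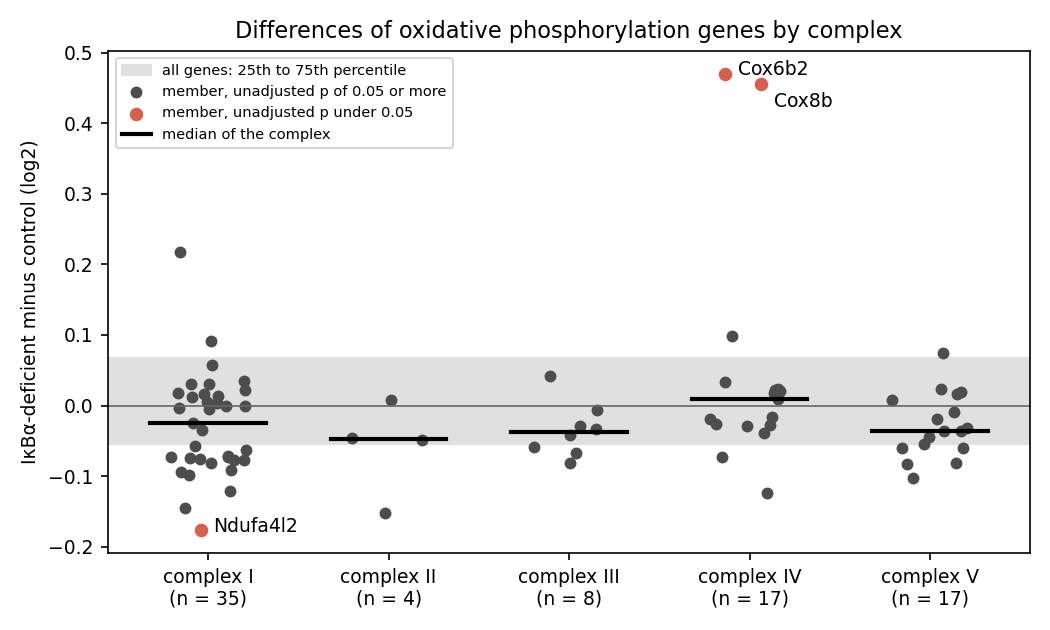
Each point is the log2 difference of 1 gene between IκBα-deficient and control arrays, by complex, with a bar at the median of the complex and a grey band for the middle range of all genes. Most points lie within 0.10 of zero, and the 3 named genes are those with an unadjusted p under 0.05.

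The groups did not overlap for 13 members. Those lying wholly lower in IκBα-deficient animals were 11 of 81, with 3.82% of all genes, and those wholly higher were 2, with 5.94% of all genes. They numbered 13 lower and 7 higher without IκBα-deficient array 2, 17 lower and 7 higher without IκBα-deficient array 1, and 18 lower and 7 higher without IκBα-deficient array 3. Leaving out control array 1 gave 11 lower and 5 higher, and leaving out control array 2 gave 23 lower and 2 higher. Smaller groups are more easily free of overlap by chance, and the shares of all genes are not given for these settings. A rise in the counts with arrays left out therefore need not mean a larger change of the members. When each array was centred on its median instead, the lower ones numbered 4, also with no share of all genes beside it. The differences behind these counts were small. Cox5b, a nuclear subunit of cytochrome c oxidase, was at 14.17, 14.16 and 14.16 in IκBα-deficient animals, against 14.18, 14.21 and 14.21 in controls, and Atp5md, a small membrane subunit of the ATP synthase, at 12.06, 12.09 and 12.11, against 12.15, 12.15 and 12.14. Both were picked out after their values were seen, like Atp5g3, which encodes the c-ring subunit (difference -0.04), and Atp5j, which encodes coupling factor 6 (-0.05). Replicates lay close together in these genes. The median SD of a member was 0.06 in IκBα-deficient and 0.03 in control arrays, against 0.10 and 0.08 over all genes. Among genes with a mean of 10 or more it was 0.05 and 0.03 for members and 0.08 and 0.05 for all genes.

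In complex I, which oxidises NADH, 13 genes had a positive and 22 a negative difference, with a median of -0.02. Without IκBα-deficient array 2 the median was -0.003, with 15 positive and 20 negative. Ndufa4l2 had the smallest p. It was at 6.53, 6.38 and 6.54 in IκBα-deficient animals, against 6.66, 6.61 and 6.71 in controls, all lower, by -0.18 ± 0.07 (SE, unadjusted p = 0.0365 and adjusted p = 0.963, limma), and by -0.13 without IκBα-deficient array 2. Ndufa4 itself was at 13.30, 13.24 and 13.35, against 13.38, 13.37 and 13.38, a difference of -0.08, and of -0.05 without that array. Both lay wholly below the controls, as did the accessory subunit Ndufb1 at 8.32, 8.23 and 8.30, against 8.34, 8.38 and 8.42. Ndufs1, the largest iron-sulfur subunit, differed by 0.09 ± 0.07 (SE), with overlapping groups.

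Ndufa12, an accessory subunit of the electron input arm, had the largest positive difference of complex I, 0.22 ± 0.10 (SE, adjusted p = 0.963, limma), but its probe sets did not point the same way. The brightest, 1455806_x_at, was at 13.30, 13.26 and 13.23 in IκBα-deficient animals, against 12.88, 13.02 and 13.24 in controls, where control array 1 was lowest and control array 3 lay within the IκBα-deficient range. On 1418814_s_at the sign was the other one, at 12.29, 12.15 and 12.29, against 12.44, 12.41 and 12.34, a difference of -0.15 with no overlap. The third bright probe set, 1433513_x_at, differed by -0.003. Of the 4 probe sets of the gene, 1 had the positive sign. A mix of signs was common, since the probe sets of 17 of the 48 members with more than 1 shared 1 sign. That count takes in dim probe sets and very small differences, so most of it need not be as wide as in Ndufa12.

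Complex II, succinate dehydrogenase, links the respiratory chain to the TCA cycle. Sdha, the flavoprotein, was at 12.35, 12.14 and 12.49 in IκBα-deficient animals, against 12.40, 12.32 and 12.41 in controls. Sdhb, the iron-sulfur subunit with the κB motif in its promoter window, was at 12.33, 12.24 and 12.33, against 12.33, 12.28 and 12.43. In both genes IκBα-deficient array 2 was the lowest of the 6 arrays and the groups overlapped. The membrane anchor Sdhc was at 10.50, 10.33 and 10.61, against 10.57, 10.49 and 10.36, and the other anchor, Sdhd, at 11.28, 10.94 and 11.23, against 11.31, 11.29 and 11.31. Sdhd lay wholly below the controls and Sdhc overlapped. The differences were -0.05 ± 0.09 for Sdha, -0.05 ± 0.07 for Sdhb, 0.01 ± 0.09 for Sdhc and -0.15 ± 0.10 for Sdhd (SE), with adjusted p of 0.963 to 0.997 (limma). Without IκBα-deficient array 2 they were 0.04 for Sdha, -0.02 for Sdhb, 0.08 for Sdhc and -0.05 for Sdhd, so that the sign of Sdha turned.

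In complex III, the cytochrome bc1 complex, 1 gene had a positive and 7 a negative difference, with a median of -0.04, and -0.01 without IκBα-deficient array 2. Uqcrh, the hinge protein that helps cytochrome c dock, was at 12.79, 12.73 and 12.80 in IκBα-deficient animals, against 12.90, 12.86 and 12.80 in controls, and Uqcr10, a small accessory subunit, at 11.69, 11.57 and 11.66, against 11.70, 11.70 and 11.70. These 2 lay wholly below the controls, Uqcrh with IκBα-deficient array 3 next to control array 3 at the same rounded value. The core protein Uqcrc1 differed by -0.07 ± 0.07, the ubiquinone-binding protein Uqcrq by -0.04 ± 0.06 and Uqcrb by -0.01 ± 0.06 (SE), each with overlapping groups. Leaving out IκBα-deficient array 2 gave -0.03 for Uqcr10, -0.06 for Uqcrh, -0.01 for Uqcrc1 and -0.01 for Uqcrq.

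In complex V, 5 genes had a positive and 12 a negative difference, with a median of -0.04, and -0.01 without IκBα-deficient array 2. The catalytic β subunit Atp5b was at 13.53, 13.34 and 13.57 in IκBα-deficient animals, against 13.57, 13.56 and 13.61 in controls, where only IκBα-deficient array 2 lay away from the rest. Its difference was -0.10 ± 0.08 (SE), and -0.03 without that array. The central stalk subunit Atp5c1 differed by -0.08 ± 0.06 and Atp5mpl, a small proteolipid of the complex, by -0.08 ± 0.07 (SE), or -0.04 without it. Atp5pb, the b subunit of the peripheral stalk, was at 13.40, 13.41 and 13.38, against 13.31, 13.35 and 13.31, wholly higher by 0.07 ± 0.06 (SE), but its other probe set gave -0.17. For Atp5a1, the α subunit, 1449710_s_at gave 0.02 and 1423111_at gave -0.13.

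Complex IV held both members with the largest differences, and both belong to its tissue isoforms. Cytochrome c oxidase has subunits with a general form and a form known from heart and muscle (Cox6a2, Cox7a1, Cox8b), testis (Cox6b2, Cox7b2, Cox8c) or lung (Cox4i2). Cox6b2 was at 7.05, 6.70 and 6.93 in IκBα-deficient animals, against 6.59, 6.43 and 6.25 in controls. Every IκBα-deficient array lay above every control array, with a difference of 0.47 ± 0.12 (SE), or 1.39-fold, an unadjusted p of 0.0038 and an adjusted p of 0.963 (limma). Without IκBα-deficient array 2 the difference was 0.57. Its general counterpart Cox6b1, picked out later like Cox8a below, was at 13.48, 13.53 and 13.48, against 13.51, 13.43 and 13.50, a difference of 0.02 ± 0.06 (SE). Each of Cox6b2 and Cox8b was read by 1 probe set, so no second probe set bears on them. Both were dim, like Ndufa4l2, with values of 5.88 to 7.05 for the 3 genes and array medians of 6.08 to 6.12. These 3 members with an unadjusted p under 0.05 were all among the 11 members with a mean under 10. Of the 70 members with a mean of 10 or more, 0 had such a p (limma).

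Cox8b was at 6.83, 6.67 and 6.20 in IκBα-deficient animals, against 6.39, 5.88 and 6.07 in controls, so that IκBα-deficient array 3 lay below control array 1. The difference was 0.45 ± 0.18 (SE), or 1.37-fold, with an unadjusted p of 0.0359 and an adjusted p of 0.963 (limma). Its general counterpart Cox8a differed by -0.02 ± 0.06 (SE). The choroid plexus markers were high on the same arrays as Cox8b and Cox6b2. The list mean of these markers was 8.95, 8.32 and 8.01 on IκBα-deficient arrays 1 to 3 and 8.11 on control array 1. These 4 arrays held the highest values of Cox8b and also of Cox6b2. On control arrays 2 and 3 the list mean was 5.91 and 5.89. All 11 measured markers of that list were higher in IκBα-deficient animals, by a median of 1.56. Ttr, the transthyretin gene, picked out later as an example, was at 14.77, 14.69 and 14.51, against 14.49, 10.93 and 10.23. With the list mean as a covariate the difference of Cox8b was 0.03 and that of Cox6b2 0.25. The list mean was high on every IκBα-deficient array and, among controls, on control array 1 alone, so it goes largely with genotype. This fit cannot tell the 2 apart, and the part of choroid plexus in these differences was not tested.

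The other isoforms showed no such difference. Cox8c differed by -0.12 ± 0.08, Cox4i2 by -0.07 ± 0.08, Cox6a2 by 0.03 ± 0.07, Cox7a1 by 0.01 ± 0.08, Cox7b2 by -0.03 ± 0.12 and Cox7a2l by 0.02 ± 0.07 (SE), each with overlapping groups and adjusted p of 0.963 to 0.997 (limma). Of the 9 genes in the isoform list, 5 had a positive and 4 a negative difference, with a median of 0.01. Over all 17 complex IV genes, 9 were positive and 8 negative, with a median of 0.01, and -0.01 without IκBα-deficient array 2. Cox6a1, at 14.45 to 14.49 over the arrays, lay wholly below the controls, with a difference of -0.02. Its highest IκBα-deficient and lowest control values were the same when rounded, at 14.47. Cox7c differed by 0.10 ± 0.09 (SE) with overlapping groups, but its probe set was far dimmer, at 7.39 to 7.68. Whether that probe set reads the main transcript of Cox7c is not known here.

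**Figure D2:**
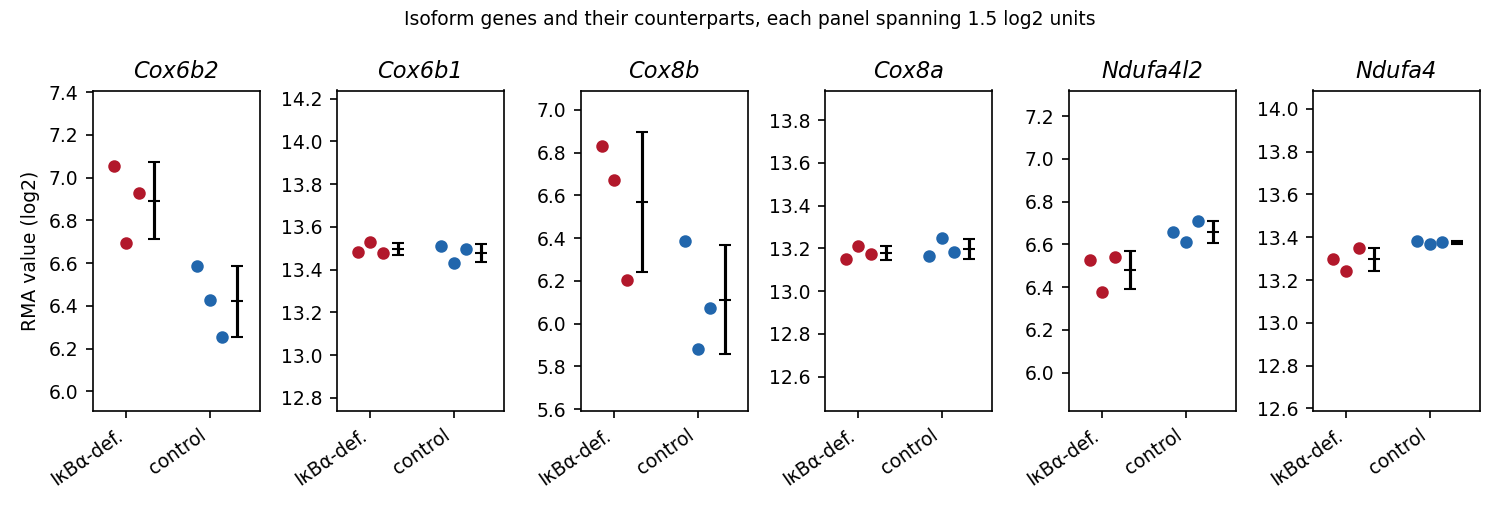
RMA values (log2) of Cox6b2, Cox8b and Ndufa4l2, each beside its general counterpart. Points are arrays, with IκBα-deficient animals on the left of each panel and controls on the right, and bars are the mean ± SD (n = 3). Cox6b2, Ndufa4l2 and Ndufa4 separate the groups, Cox8b does not, and Cox6b1 and Cox8a differ by 0.02 and -0.02.

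Array by array, the members stood lowest on IκBα-deficient array 2. For each gene the mean over the 6 arrays was subtracted, and the median of the members was then 0.003, -0.04 and 0.003 on IκBα-deficient arrays 1 to 3, against 0.02, -0.003 and 0.02 on control arrays 1 to 3. The median of all genes went the other way on IκBα-deficient array 2, at 0.04. That array held the lowest value for 38 of the 81 members, or 46.9%, and for 18.1% of all genes. Among genes with a mean of 10 or more the shares were 51.4% of 70 members and 27.3% of 3572 genes. By complex, it was lowest for 17 of 35 genes in complex I, 4 of 4 in complex II, 6 of 8 in complex III, 1 of 17 in complex IV and 10 of 17 in complex V.

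The median on IκBα-deficient array 2 was -0.07 for complex I, -0.18 for complex II, -0.08 for complex III and -0.04 for complex V, while complex IV stood at 0.03, near the 0.04 of all genes. On the other 5 arrays the medians of the complexes ranged from -0.02 to 0.07. The widest departures belonged to Ndufb5, an accessory subunit of the membrane arm, at 12.11 on IκBα-deficient array 2 beside 12.55 and 12.58 on the other IκBα-deficient arrays and 12.54, 12.47 and 12.53 in controls. The core iron-sulfur subunit Ndufv2 was at 12.40 there beside 12.70 and 12.79, against 12.77, 12.71 and 12.78 in controls. Ndufs3, a core subunit of the arm that reaches into the matrix, was at 11.90 beside 12.22 and 12.22, against 12.16, 12.18 and 12.22 in controls. These 3 genes were picked out after their values were seen. Without that array 48 of the 81 members had a negative difference, with a median of -0.01, where 9459 of all genes were negative with a median of -0.004.

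**Figure D3:**
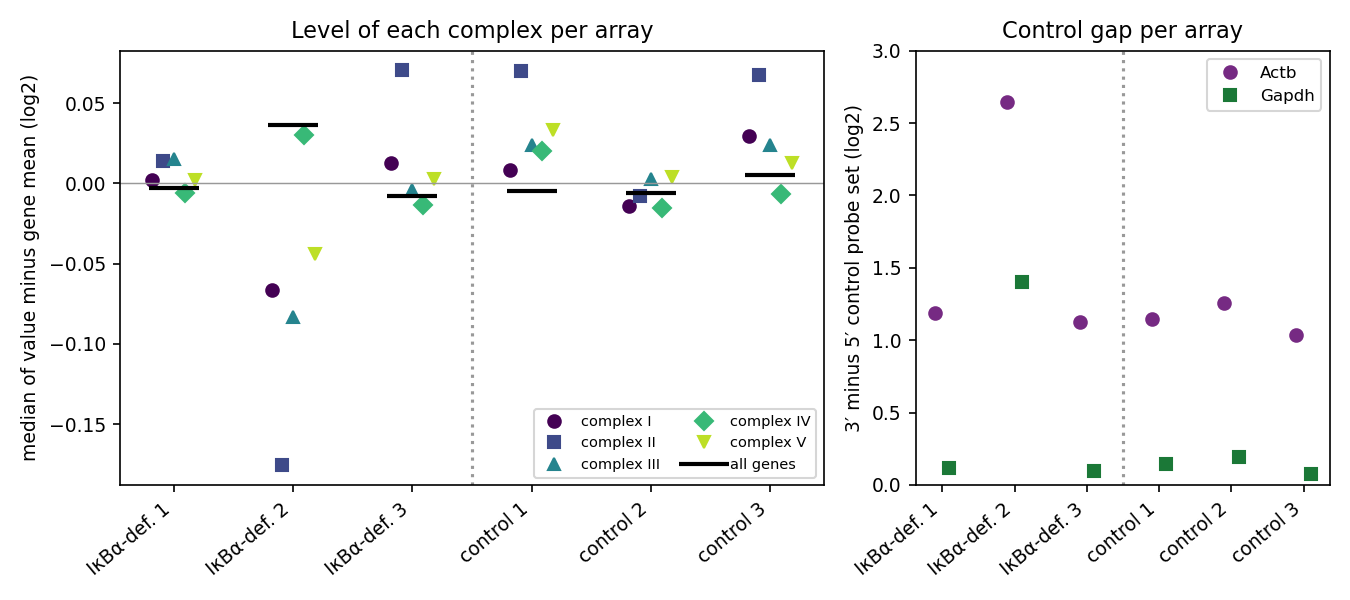
Left, for each array, the median over the genes of a complex of the value minus the gene's mean over 6 arrays (log2), with all genes as a black bar. Right, the 3′ minus 5′ difference of the Actb and Gapdh control probe sets (log2). IκBα-deficient arrays are left of the dotted line and controls right of it. Complexes I, II, III and V are lowest on IκBα-deficient array 2, the array with gaps of 2.64 and 1.40.

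In complexes I and V the low values on IκBα-deficient array 2 lay mostly on 1 kind of probe set, a split made after the values were seen. On this array type a probe set name ending in a plain _at marks probes unique to a transcript, while the codes a, s and x mark probes shared by transcripts of a gene, by several genes, or with possible cross-hybridisation. Of 38 members represented by an uncoded probe set, 34 had a negative difference, with a median of -0.07, against 18 of 43 represented by a coded one, with a median of 0.01. Over all genes 7018 of 14531 on uncoded and 1599 of 3662 on coded probe sets were negative. In complex I, IκBα-deficient array 2 was the lowest of the 6 arrays for 15 of 16 genes on uncoded and 2 of 19 on coded probe sets. In complex V this held for 6 of 7 and 4 of 10, and in complex IV for 0 of 9 and 1 of 8. The counts of complex III did not show the split, and complex II had only 1 gene represented by a coded probe set, too few to tell. Sdha and Sdhd, the complex II genes read by both kinds, did depart differently from the other IκBα-deficient arrays. Sdhd departed by -0.32 on its uncoded and 0.11 on its coded probe set, and Sdha is given below. By representing probe set, IκBα-deficient array 2 was lowest for 3 of 3 uncoded and 1 of 1 coded in complex II, and for 3 of 3 uncoded and 3 of 5 coded in complex III. Relative to the other IκBα-deficient arrays, the complex III genes stood at a median of -0.07 on uncoded and -0.09 on coded probe sets. Without that array, 26 of the 38 and 22 of the 43 were negative, with medians of -0.01 and -0.002.

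The same gene could be read both ways. There were 27 members with an uncoded and a coded probe set that both averaged 8 or more, and for 25 of them the value on IκBα-deficient array 2, relative to IκBα-deficient arrays 1 and 3, was lower on the uncoded probe set. The median of this departure was -0.11 on uncoded and 0.05 on coded probe sets. Sdha departed by -0.27 on 1426688_at and by 0.16 on 1426689_s_at. For Atp5pb the values were -0.49 and 0.02, for Ndufv2 -0.34 and 0.11, for Ndufb5 -0.45 and -0.04. The exceptions were Uqcrh, at -0.07 and -0.23, and Atp5k, an ATP synthase membrane subunit picked out later, at 0.03 and 0.01. The group difference moved with it, at a median of -0.06 over the 27 uncoded and 0.02 over the 27 coded probe sets. Where along the transcript each probe set lies is not given in the files used here.

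**Figure D4:**
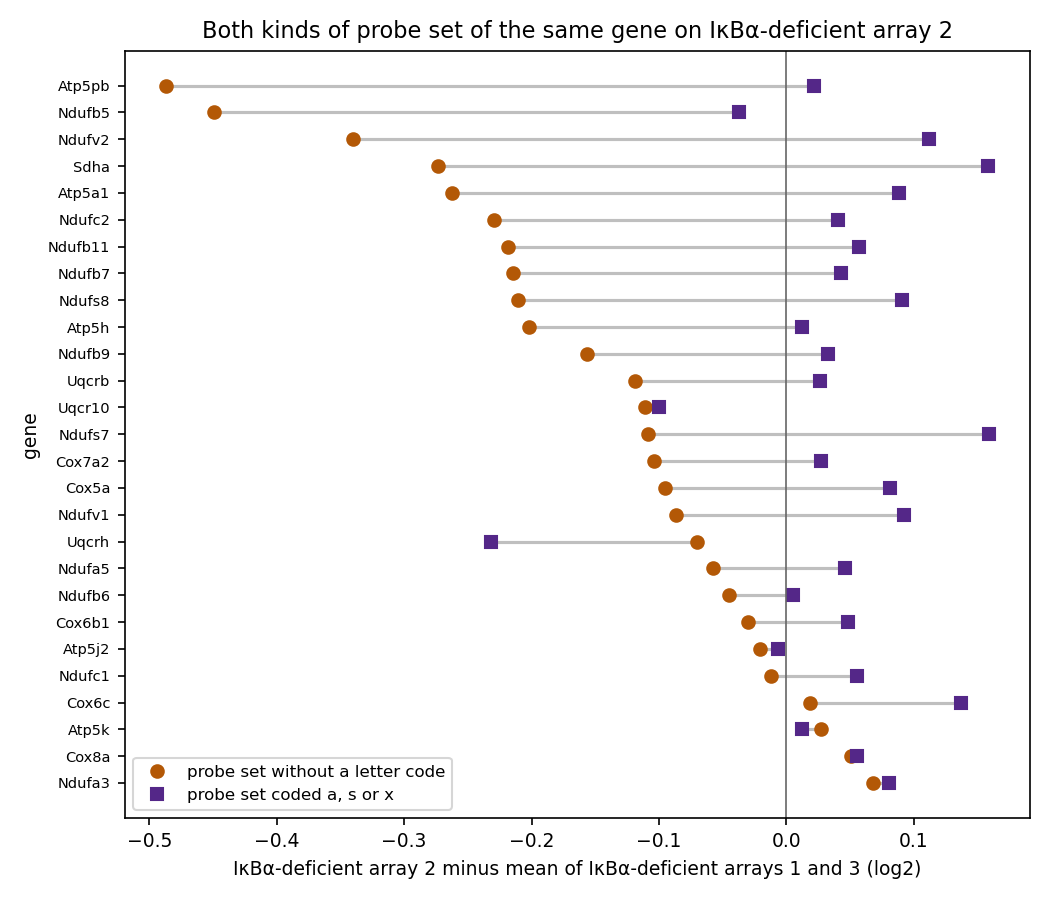
For the 27 genes with both kinds of probe set at a mean of 8 or more, the value on IκBα-deficient array 2 minus the mean of IκBα-deficient arrays 1 and 3 (log2), for the uncoded (circle) and the coded (square) probe set of the same gene. The circle is left of the square for 25 genes, and Uqcrh and Atp5k run the other way.

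With the mean control gap as a covariate the median difference of the members was -0.01, with 32 positive and 49 negative, and 0 members passed in either direction. By complex the medians were then -0.002, 0.01, -0.01, -0.01 and -0.01 for complexes I to V, close to the values without IκBα-deficient array 2. The mean gap was 2.02 on that array and 0.556 to 0.725 on the others, so the covariate mostly marks that array. The 2 settings are thus bound to come out alike, and the part of the gap was not tested.

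In lists of other genes of mitochondrial energy supply, 0 were called at an adjusted p of 0.05 (limma), as over all genes. The lists differed in direction. Of 43 measured assembly factors, which build the complexes, 14 had a positive and 29 a negative difference (median -0.04), and IκBα-deficient array 2 was the lowest array for 26 of them. Without it 20 of 43 were negative, with a median of 0.01. Acad9, an assembly factor of complex I, was at 9.03, 8.83 and 9.05 in IκBα-deficient animals, against 9.20, 8.99 and 9.17 in controls, a difference of -0.15, and of -0.08 without IκBα-deficient array 2. Cox19, a copper-binding factor for complex IV, differed by -0.09 ± 0.06 (SE). Of 21 measured electron carriers and exchange proteins 10 were positive and 11 negative (median -0.01), with Vdac2, an outer membrane channel, at -0.13 ± 0.10 and Coq5, an enzyme of ubiquinone synthesis, at 0.08 ± 0.07 (SE). These were -0.03 for Vdac2 and 0.03 for Coq5 without IκBα-deficient array 2.

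Regulators of mitochondrial biogenesis were evenly split, with 7 positive and 7 negative of 14 and a median of 0.005. Nrf1, the factor whose motif is shown above, was at 6.89, 6.78 and 7.01 in IκBα-deficient animals, against 6.82, 6.89 and 6.59 in controls, and Gabpb1, a subunit of GABP, at 7.50, 7.83 and 7.45, against 7.61, 7.27 and 7.45. Both overlapped between groups, and without IκBα-deficient array 2 they differed by 0.19 for Nrf1 and 0.03 for Gabpb1. In the list of pyruvate dehydrogenase and the TCA cycle 12 of 16 measured genes were positive and 4 negative, with a median of 0.03. Without IκBα-deficient array 2 the counts were the same and the median was 0.02. Dld, the shared lipoamide dehydrogenase, was at 0.09 ± 0.06 (SE). Ogdh, of the oxoglutarate dehydrogenase complex, was at -0.13 ± 0.09 (SE), or -0.05 without that array. In glycolysis 4 of 13 were positive and 9 negative (median -0.04, and -0.01 without the array), with pyruvate kinase Pkm at -0.14 ± 0.10 and triosephosphate isomerase Tpi1 at -0.11 ± 0.09 (SE). Without it Pkm was at -0.04 and Tpi1 at -0.01. Of the 13 subunits encoded by mitochondrial DNA only ND5, a core subunit of complex I, had a probe set named here. It was at 14.08, 13.86 and 13.98 in IκBα-deficient animals, against 13.97, 14.01 and 13.97 in controls, lowest on IκBα-deficient array 2 and at a difference of 0.05 without it.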

How the data were processed

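Hippocampal total RNA of 6 mice was measured on 1 array each. The deposited values are on the log2 scale and were made by the authors with RMA, per the submitters' processing notes. RMA corrects background, quantile-normalizes arrays and summarises the probes of a probe set. Its version is not given in the sources used here. It compresses differences between low values and hides a shift shared by most genes. Arrays have no read depth, and their number limits the precision.

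Of 45101 probe sets, 64 controls were left out, 34945 had 1 symbol in GEO's platform annotation, 932 had several and 9160 had none. A gene with several probe sets was read from the one with the highest mean. Of the 18193 genes, 18031 matched a RefSeq gene by Entrez identifier, all 81 members among them. Genotype was fitted with lmFit and eBayes (limma 3.58.1, R 4.3.3, no other term), and two-sided p-values were adjusted by Benjamini-Hochberg over all 18193 genes at a threshold of 0.05. It was tested on simulated data made from these means and spreads. The members, gene lists and tests were chosen with earlier results of these data known. Of the lists, medians and counts are given without a test.

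Genes are named by a rule: the targeted gene, all of complex II, in each other complex the 4 members with the smallest p and the 1 with the highest mean, every member with an unadjusted p under 0.05, the tissue isoforms, members that are no subunit, and the 2 genes with the smallest p of each pathway list. Others are marked as picked out later. Alternatives were each array left out, IκBα-deficient array 2 and control array 1 both left out, median centring, a block for the repeat number, a further quantile normalization, the dimmest 40% of genes left out, 2 other choices of probe set, trend and robust settings, array weights, no moderation, covariates for the control gap and for the choroid plexus list, and all probe sets tested singly. Figures were drawn with matplotlib 3.10.9.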

Additional observations from a re-analysis of the deposited data

How the results depend on the processing

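Under all 19 alternatives 0 members were called higher and 0 lower at an adjusted p of 0.05. The median difference of the members, -0.03 as reported, was -0.0610 with coded probe sets left out and -0.0005 without IκBα-deficient array 2 and control array 1, and -0.0353 to -0.0081 with single arrays left out. Calls over all genes were 0 higher and 0 lower as reported. With single arrays left out they were 0 to 5 higher (5 without control array 1) and 0 to 1 lower (1 without IκBα-deficient array 3). There was 1 lower call with median centring, dim genes left out, the mean of all probe sets, coded probe sets left out, trend and robust settings, and array weights, and there were 3 when all probe sets were tested singly. Nfkbia was the gene called in those settings that use 1 row per gene, with adjusted p of 0.00379 to 0.048. Among members, the counts by sign were 16 higher and 65 lower when a gene's probe sets were averaged and 8 higher and 57 lower with coded probe sets left out. Members lying wholly lower numbered 4 with median centring and 11 to 23 with single arrays left out. Those wholly higher numbered 2 to 7 with single arrays left out, 11 (beside 14 lower) without IκBα-deficient array 2 and control array 1, and 1 with dim genes left out, with the mean of all probe sets and with coded probe sets left out. With all probe sets tested singly, the member probe sets without overlap were 4 higher and 19 lower. Counts with arrays left out come from smaller groups, which separate more easily. None of the counts without overlap in these alternatives has a share of all genes beside it.

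The repeat number as a block moved no call among the members (Cox6b2 adjusted p = 0.424, limma) or over all genes. Deviations from the group means correlated between same-numbered arrays at 0.061, 0.238 and 0.195 across genes, and between other arrays at -0.267 to 0.143. Each control array correlated best with its same-numbered IκBα-deficient array. For control array 1 this was nearly a tie, at 0.061 beside 0.060 with IκBα-deficient array 2. IκBα-deficient array 1 correlated best with control array 3 (0.143). The submitters speak of pairs of knockouts and littermate controls, but no label says that the repeat number marks a litter. The number was therefore used only as an alternative, and whether the arrays are paired was not decided here. Over the alternatives Cox6b2 ranged from 0.254 to 0.650 (adjusted p 0.424 to 1), Cox8b from 0.032 to 0.638 (adjusted p 0.576 to 1) and Ndufa4l2 from -0.207 to -0.124 (adjusted p 0.696 to 1).

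Of 52 genes named, 32 kept their sign in every alternative. Of the 20 others, none but Ttr passed the test in any setting (adjusted p = 0.00291, limma, without control array 1), and the cause was not tested. With the mean of all probe sets Sdhc was at -0.0207, Atp5pb at -0.0496, Atp5a1 at -0.0321, Cox7a2l at -0.0461, Cox6b1 at -0.0217, Atp5k at -0.00029 and Nrf1 at -0.0458. With coded probe sets left out Ndufa12 was at -0.0413, Atp5c1 at 0.0145, Atp5pb at -0.1729, Cox6b1 at -0.0610, Atp5k at -0.0188 and Atp5a1 at -0.1253. With array weights Uqcrb was at 0.00068, Atp5a1 at -0.0114, Cox7a2l at -0.0267, Atp5k at -0.0154 and ND5 at 0.0383. With the gap covariate Sdha was at 0.0424, Atp5a1 at -0.0127, Cox6a2 at -0.0045, Cox7a2l at -0.0255, ND5 at 0.0428, Ndufb5 at 0.0474 and Ndufs3 at 0.0319. With the choroid plexus covariate Sdhc was at -0.0813, Cox6a2 at -0.0072, Cox6b1 at -0.0131, Cox8a at 0.0271, Atp5k at -0.0328, Gabpb1 at -0.0200 and Ttr, itself in that list, at -0.0502. Without IκBα-deficient array 2 and control array 1 Sdha was at 0.0556, Atp5a1 at -0.0071, Cox7a2l at -0.0122, Cox7b2 at 0.1031, ND5 at 0.0414, Ndufb5 at 0.0656 and Ndufs3 at 0.0206. With single arrays left out the ranges were -0.0565 to 0.0817 for Sdhc, -0.0350 to 0.0678 for Cox7a1, -0.1197 to 0.0871 for Cox7b2, -0.1279 to 0.0424 for Sdha, -0.0134 to 0.0431 for Atp5a1, -0.0068 to 0.0634 for Cox6a2, -0.0288 to 0.0711 for Cox7a2l, -0.0669 to 0.0468 for ND5, -0.1820 to 0.0512 for Ndufb5, -0.1295 to 0.0348 for Ndufs3, -0.0059 to 0.0330 for Cox6b1, -0.0365 to 0.0071 for Cox8a, -0.0286 to 0.0344 for Atp5k and -0.0259 to 0.0233 for Uqcrb.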
